A study of Mus musculus with 4 samples.

Results

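Gm4303, Gm4312 and Gm4340 are predicted mouse genes on chromosome 10 that belong to clusters of nearly identical copies. They were chosen by name, after their rise in Rif1-depleted cells had been seen in these data, and make up 3 of the 30199 gene names on the array, with 4 of its 39429 probes. The mouse ES cell line E14tg2a was measured on 4 one-color arrays. One array held untreated cells at 0 h, one held cells transfected with control siRNA for 72 h, and the other two held cells transfected with a mixture of siRNAs against Rif1 for 48 h or for 72 h. Each condition had 1 array, so the spread between replicates is unknown, no p-value is given, and the small number of arrays limits all precision. Rif1 siRNA against control siRNA is the contrast by which the genes were selected, so their values in it are a description. Control siRNA was measured at 72 h only. Each 48 h value against it therefore differs in time as well as in siRNA, and these cannot be told apart.

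ES cells in culture resemble the inner cell mass of the blastocyst. A small and changing fraction of them switches on genes that are otherwise transcribed at the 2C stage, when the embryo first activates its own genome, and many of these genes lie in clusters of tandem copies. Rif1 is a nuclear protein that regulates the timing of DNA replication. All 3 genes are named only as predicted genes in the array files. The sequence of Gm4303 and Gm4312 resembles that of Alyref, an adaptor that hands spliced mRNA to the nuclear export machinery.

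The probe sequences come first, because they decide which transcripts each value can include. Both Gm4312 probes and the Gm4303 probe are given 5′ to 3′ as they stand on the array. The capitals in the second Gm4312 probe mark the bases that differ from the first within the 39 bases where the pair overlap (A47T and G59A, counted from 1 at the 5′ end of A_55_P1980072). Of the Gm4340 probe, bases 9 to 38 are shown, with capitals at AATAAA, the hexamer of the polyadenylation signal, which occurs at 2 places in the whole probe.
Gm4303 (A_55_P2061907): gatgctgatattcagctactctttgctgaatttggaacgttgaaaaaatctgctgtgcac
Gm4312 (A_55_P1980072): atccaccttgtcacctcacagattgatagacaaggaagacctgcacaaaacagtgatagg
Gm4312 (A_55_P1968848): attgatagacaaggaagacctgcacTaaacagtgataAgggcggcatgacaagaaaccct
Gm4340 (A_55_P2090280), bases 9 to 38: cacctttgccctAATAAAattgtgtgtaga

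In the array files, the Gm4303 probe lies at chr10:99803784-99803843 of mm9. The Gm4312 probes lie at chr10:99803961-99804020 and chr10:99803982-99804041, and the centers of the 3 probes span 198 bp. The Gm4340 probe lies 3.83 Mb away, at chr10:103633507-103633566. All 4 are placed on the plus strand. The Gm4303 and Gm4312 probes thus share one place on mm9, and their positions do not separate the genes.

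The transcripts that the array files list for each probe were looked up among the RefSeq genes of GRCm38.p6. The Gm4303 probe was listed for transcripts of 4 genes, Gm4303, Gm4305, Gm4307 and Gm4312. One Gm4312 probe (A_55_P1968848) was listed for Gm4301, Gm4303, Gm4305 and Gm4312, and the other (A_55_P1980072) for Gm4301 and Gm4312. The Gm4340 probe was listed for Gm4340, Gm20765 and Gm21312. None of the 4 probes is therefore specific to 1 gene, and each value below is the sum over the copies a probe reads.

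RefSeq places 6 protein-coding genes of this kind in a row between Kitl, which encodes stem cell factor, and Tmtc3 on GRCm38.p6: Gm4301, Gm4302, Gm4303, Gm4305, Gm4307 and Gm4312. The block also holds 9 pseudogenes and 1 long noncoding RNA gene, and 2 of the 6 protein-coding names are on the array. Within 500 kb of Gm4340, RefSeq lists 7 protein-coding genes (Gm21293, Gm6763, Gm8764, Gm21304, Gm21312, Gm20765 and Gm4340), 3 small nuclear RNA genes and 1 miRNA gene. Of these 7, only Gm4340 is on the array by name.

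The 250 bases upstream of each annotated start (RefSeq, GRCm38.p6) show how alike the copies are. In the Gm4312 sequence, capitals mark the 5 bases that differ from Gm4303 within the 247 bases the stretches share. In the Gm4340 sequence, capitals mark ATTGG, the reverse of the CCAAT box, and TTATCT, the reverse of the GATA-type hexamer AGATAA.
Gm4303, chr10:100345722-100345971, plus strand: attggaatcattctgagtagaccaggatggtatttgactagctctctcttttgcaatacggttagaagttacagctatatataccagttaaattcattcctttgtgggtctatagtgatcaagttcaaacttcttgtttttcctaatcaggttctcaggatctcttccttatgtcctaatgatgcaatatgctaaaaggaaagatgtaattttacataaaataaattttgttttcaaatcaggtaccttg
Gm4312, chr10:100382561-100382810, minus strand: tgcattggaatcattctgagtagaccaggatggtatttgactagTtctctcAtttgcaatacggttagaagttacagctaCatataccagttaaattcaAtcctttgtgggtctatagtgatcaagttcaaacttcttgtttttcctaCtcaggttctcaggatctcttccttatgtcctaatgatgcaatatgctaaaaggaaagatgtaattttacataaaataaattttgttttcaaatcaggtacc
Gm4340, chr10:104193792-104194041, plus strand: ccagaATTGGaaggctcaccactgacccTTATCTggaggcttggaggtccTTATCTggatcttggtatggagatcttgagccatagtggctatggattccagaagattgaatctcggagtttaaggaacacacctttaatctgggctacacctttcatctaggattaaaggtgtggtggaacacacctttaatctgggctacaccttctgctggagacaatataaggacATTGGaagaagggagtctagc

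Over 300 bases around the start, the Gm4303 and Gm4312 promoters were 98.3% identical (292 of 297 aligned bases), although RefSeq puts the genes on opposite strands. All 5 other protein-coding genes between Kitl and Tmtc3 had promoters 98.3 to 100% identical to that of Gm4303. The 5 genes near Gm4340 whose promoters were given (Gm20765, Gm21293, Gm21304, Gm21312 and Gm8764) were 99.7 to 100% identical to Gm4340. The Gm4340 stretch also holds a 30-base repeat, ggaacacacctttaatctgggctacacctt, at bases 125 and 178 of the sequence above, whereas the longest repeat was 8 bases in Gm4303 and 7 bases in Gm4312.

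Short motifs were searched on both strands over the same 300 bases, and their share among 32851 RefSeq promoters of that length is given. CCAAT, which 37.4% of all promoters hold, matched once in Gm4303 and once in Gm4312, in the attgg near the 5′ end, and at 2 places in Gm4340. AGATAA, held by 11.2%, matched at 2 places in Gm4340 only. TATAAA (the TATA box, 13.6% of promoters) and TGCACAC, a motif known for Zscan4 (4.4%), had 0 matches in all 3 promoters. A match is a run of letters and not a tested site.

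The targeted gene was read by 1 probe (A_55_P2015964). The level of Rif1, the processed signal divided by the 75th percentile of its array, was 5.55 untreated, 5.42 after control siRNA, and 2.15 and 4.15 after 48 h and 72 h of Rif1 siRNA. Rif1 mRNA thus differed from control siRNA by -1.34 (log2) at 48 h and by -0.39 at 72 h. The share of spots well above background was 58.8 to 74.1% and was higher on both Rif1 siRNA arrays (71.5 and 74.1%) than on the others (58.8 and 62.8%), and its part in the values below was not tested. The 10 listed ES cell markers were well above background on all 4 arrays, with a summed level of 258 to 274. Within that sum, Pou5f1 was 1.51-fold and Utf1 0.85-fold at 72 h of Rif1 siRNA relative to control siRNA. Summed levels of 5 trophectoderm markers were 12.4, 12.4, 14.3 and 13.6 on the untreated, control siRNA, 48 h and 72 h arrays. Of these markers, Elf5 was not well above background on the untreated and control siRNA arrays. It was at 0.0112 and 0.00976 at 48 h and 72 h of Rif1 siRNA. Krt8 and Tfap2c made up most of that sum, while Cdx2 alone had levels of 0.0344, 0.0500, 0.0721 and 0.106 in the same order, 2.11-fold higher at 72 h than with control siRNA. Those of 4 primitive endoderm markers were 1.18 to 1.84, those of 2 mesoderm markers 0.0933 to 0.124 with Mixl1 near 0, and those of 3 neural markers 0.285 to 0.335. For 6 fibroblast markers the sum was 3.78 to 4.42, of which Thy1 gave most, and within it Col1a1 and Col1a2 were 1.76-fold and 1.77-fold higher at 72 h of Rif1 siRNA than with control siRNA. The part of these markers in the values of the 3 genes was not tested. The 4 arrays shared 1 slide, which leaves no batch to compare.

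On all 4 probes the lowest level was in untreated cells, the next in control siRNA cells, and both Rif1 siRNA arrays were more than 13-fold above control siRNA. Each probe had 1 spot per array, was well above background on all 4 arrays, carried no outlier or saturation flag and passed the filter on dim probes. The error that the scanner software gives for each spot was at most 10.3% of the signal. In these bulk samples, more cells with the transcripts and more RNA per cell cannot be told apart.

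The Gm4303 probe had levels of 0.423 untreated, 0.659 after control siRNA, and 13.2 and 15.1 after 48 h and 72 h of Rif1 siRNA. Both Rif1 siRNA arrays lay far above the others. Over the 72 h control siRNA array, the 48 h Rif1 siRNA array was 20.01-fold and the 72 h array 22.9-fold higher (4.32 and 4.52 on the log2 scale). Against untreated cells the folds were 31.1 and 35.7.

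Gm4312 was read by a pair of overlapping probes, which share most of their target and are not independent. The first (A_55_P1980072) had levels of 0.488, 0.799, 18.2 and 21.6 in untreated cells, control siRNA cells, and Rif1 siRNA cells at 48 h and 72 h. The second (A_55_P1968848) had levels of 0.235, 0.408, 8.93 and 10.5 in the same order. The order of the arrays was the same for both, and so were the folds within a narrow range. Over control siRNA, the first was 22.7-fold higher at 48 h and 27.0-fold at 72 h, and the second 21.9-fold and 25.8-fold. Against untreated cells at 72 h they were 44.2-fold and 44.9-fold higher.

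The Gm4340 probe had levels of 2.27 untreated, 4.14 after control siRNA, and 56.3 and 63.3 after 48 h and 72 h of Rif1 siRNA. It had the lowest fold of the 4 probes over control siRNA, 13.6-fold at 48 h and 15.3-fold at 72 h (3.76 and 3.93 on the log2 scale). Its fold against untreated cells was 24.8 at 48 h and 27.9 at 72 h. The plot of levels by array shows the 4 probes running nearly in parallel.

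**Figure D1:**
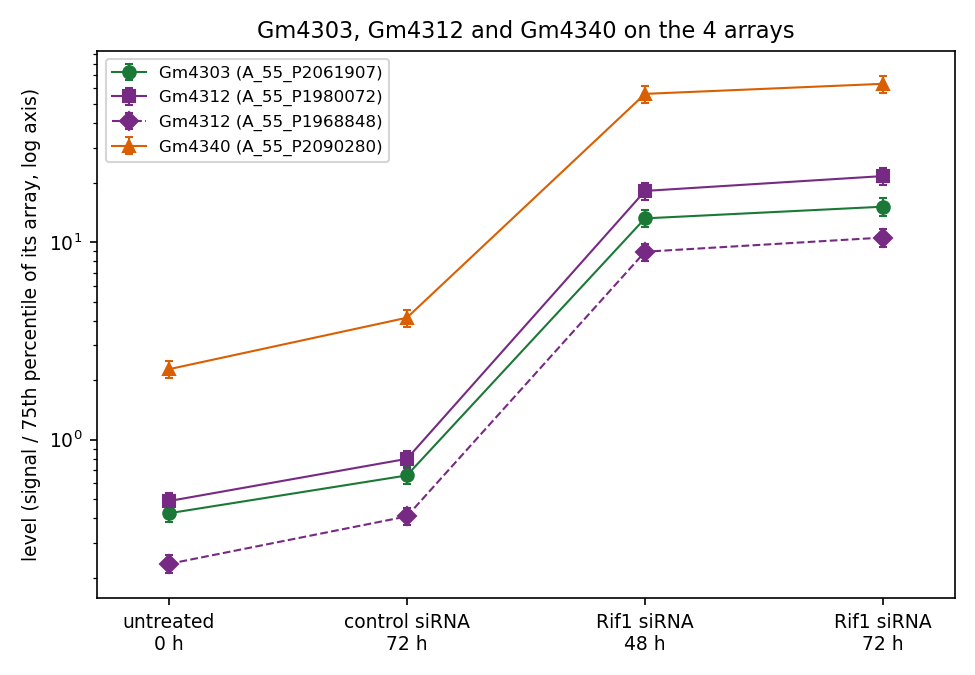
Levels of the 4 probes (processed signal divided by the 75th percentile of the array, log axis) on the 4 arrays, 1 array per condition; bars are the scanner software's own error of a spot, at most 10.3% of the signal, not a replicate error. Every probe is lowest in untreated cells and highest at 72 h of Rif1 siRNA, where Gm4340 reaches 63.3 and the lower Gm4312 probe 10.5.

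Set beside all probes, the genes lie far out in the contrast that chose them. All 4 probes were over 2-fold higher at 72 h of Rif1 siRNA than with control siRNA, where 2.82% of the 27732 probes that passed the filter were (783 probes), and all 4 at 48 h, where 3.17% were (878 probes). Since the rule used this contrast, nothing is read from these counts. The median difference over the 4 probes was 4.60 (log2) at 72 h and 4.39 at 48 h, or 24.3-fold and 20.9-fold. Over 24312 probes measured on both arrays the SD of the 72 h difference was 0.505, and the percentiles 5 and 95 were -0.43 and 0.53.

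Control siRNA against untreated cells is outside the selected contrast, and here too all 4 probes were higher. Gm4303 was 1.56-fold higher with control siRNA, Gm4312 1.64-fold and 1.74-fold, and Gm4340 1.82-fold. On the log2 scale these differences were 0.64, 0.71, 0.80 and 0.87, with a median of 0.75, while the SD over 22548 probes measured on both arrays was 0.256 and the percentiles 5 and 95 were -0.34 and 0.31. None of the 4 passed 2-fold, as 0.584% of all probes did (162 probes). All 4 passed 1.5-fold, a threshold chosen after the values were seen, which 1.76% of all probes did (488 probes). The control siRNA and untreated arrays differ in transfection and in time, and these cannot be told apart.

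Between 48 h and 72 h of Rif1 siRNA the levels changed little. The 72 h levels were 1.15-fold (Gm4303), 1.19-fold and 1.18-fold (Gm4312) and 1.12-fold (Gm4340) those at 48 h, and none passed 2-fold, as 0.49% of all probes did (136 probes). The differences of 0.17 to 0.25 (log2) were above the spread of 0.0942 for single spots repeated within these arrays but below 0.285, the SD over 27521 probes measured on both, which includes changes between the conditions and is not a replicate spread. All 4 probes were higher at 72 h, and whether this exceeds the spread between replicates cannot be said. The Rif1 mRNA level differed by 0.95 (log2) between the same arrays, higher at 72 h.

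**Figure D2:**
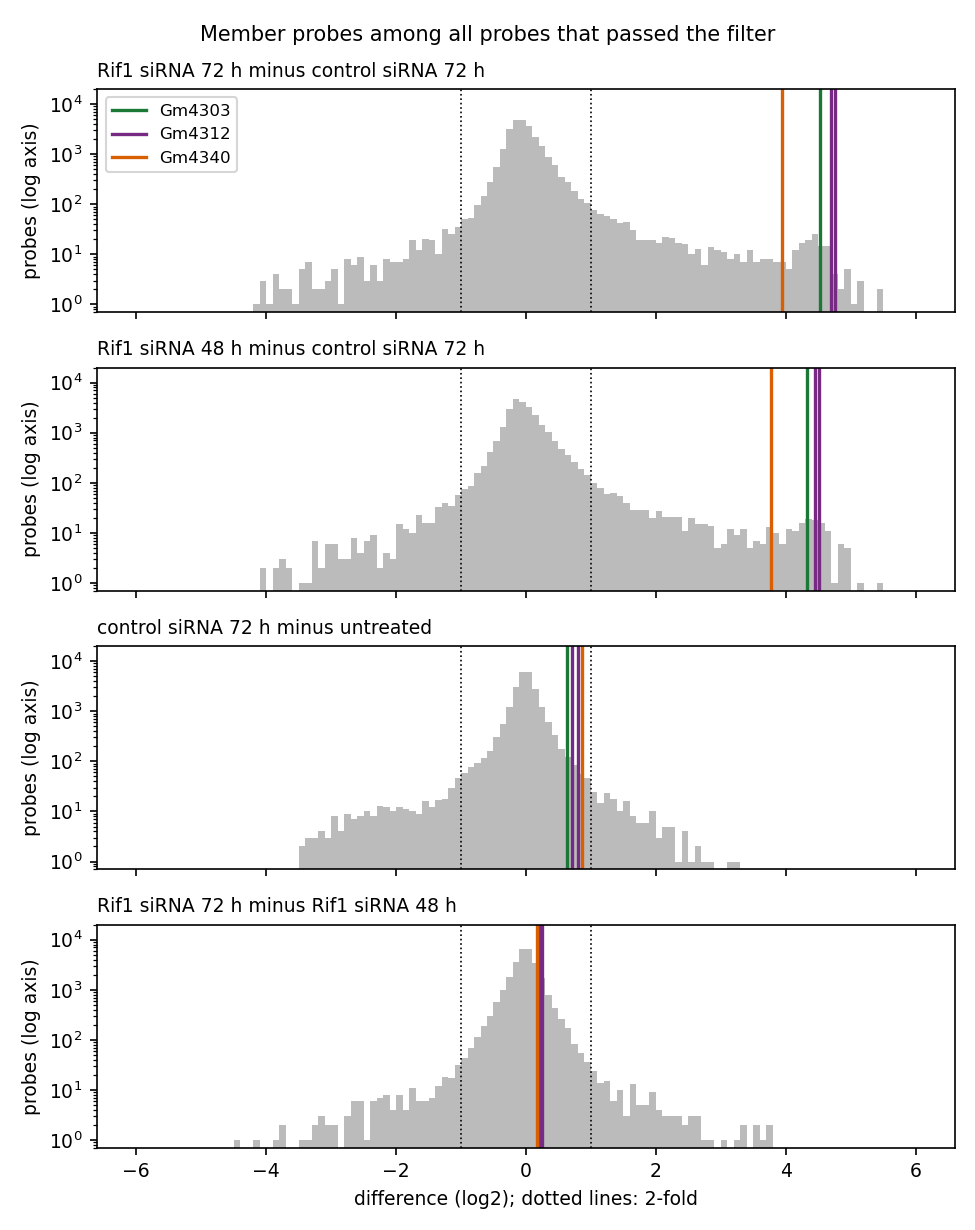
Histograms of the log2 difference of each filtered probe for which one was given (log count axis, lower bounds included), with colored lines at the Gm4303, Gm4312 and Gm4340 probes and dotted lines at 2-fold, for 4 pairs of arrays. The lines lie at 3.93 to 4.76 for Rif1 siRNA at 72 h against control siRNA, at 0.64 to 0.87 for control siRNA against untreated cells, and at 0.17 to 0.25 between 72 h and 48 h.

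The differences of the 3 genes are set side by side here without a test. At 72 h of Rif1 siRNA against control siRNA, Gm4340 was at 3.93 (log2), and the Gm4303 and Gm4312 probes were at 4.52 to 4.76. In control siRNA against untreated cells Gm4340 was at 0.87 and Gm4303 at 0.64, with both Gm4312 probes between them. The control siRNA array enters these 2 differences with opposite sign, so nothing is read from the change in the place of Gm4340. The Gm4312 probes were at 4.76 and 4.69 in the first pair of arrays and at 0.71 and 0.80 in the second.

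A further 4 probes of the array share a run of at least 16 bases with a member probe, and they give further readings of the same families. Of these, a probe without a gene name (A_55_P2090279, chr10:99760963-99761022) ends with the first 30 bases of the Gm4303 probe. The probe ENSMUST00000167995 (A_55_P2079500, chr10:99859176-99859235), which the array files describe as a predicted gene, Gm4781, matches the first Gm4312 probe at 54 of 60 bases, and RefSeq lists Gm4781 among the pseudogenes between Kitl and Tmtc3. A probe placed on another chromosome, NAP018810-001 (A_55_P2006163, chr1:50115114-50115173), matches the second Gm4312 probe at 47 of 56 overlapping bases. A probe without a name or a position (A_55_P2136612) matches the Gm4340 probe at 57 of 60 bases, with T52C, G56T and A57T. In the sequences below, capitals mark the bases that differ from the member probe. The substitutions from the first Gm4312 probe to ENSMUST00000167995 are A22T, T23G, A50G, G53A, T54A and G55A.
ENSMUST00000167995 (A_55_P2079500): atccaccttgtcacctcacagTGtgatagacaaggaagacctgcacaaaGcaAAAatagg
NAP018810-001 (A_55_P2006163): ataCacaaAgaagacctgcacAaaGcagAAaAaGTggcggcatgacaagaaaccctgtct

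These 4 related probes had patterns near those of the genes they resemble. A_55_P2090279 had levels of 0.471 untreated, 0.732 after control siRNA, and 13.1 and 15.4 after 48 h and 72 h of Rif1 siRNA. For ENSMUST00000167995 the levels were 0.279, 0.478, 10.005 and 12.3 in the same order. All 4 lay low on the untreated and control siRNA arrays and high on both Rif1 siRNA arrays. NAP018810-001 had levels of 0.213, 0.307, 6.63 and 7.80, and A_55_P2136612 had levels of 2.15, 3.89, 52.2 and 56.4. Their differences at 72 h against control siRNA were 4.40, 4.69, 4.67 and 3.86 (log2), the last being the relative of Gm4340. Against untreated cells, control siRNA cells were higher by 0.64, 0.78, 0.52 and 0.86 (log2). Since they share sequence with the member probes, they are not independent readings.

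The surrounding genes were examined next, to see how far the rise reached along chromosome 10. Of the 11 other probes within 500 kb of a member probe on mm9, 10 passed the filter, and 4 of them were over 2-fold higher at 72 h of Rif1 siRNA than with control siRNA, against 2.82% of all probes. Nothing is read from that count, because 2 of the 4 share sequence with member probes and the others were well above background on the Rif1 siRNA arrays only. Those 4 lie within 60 kb of the Gm4303 and Gm4312 probes, and those that share sequence are A_55_P2090279 and ENSMUST00000167995 above. The others are A_55_P2155056 and A_55_P2020841, which have no gene name. Their levels at 72 h were 0.131 and 0.0365, at least 8.25-fold and 2.30-fold higher than with control siRNA, where the bound is set by the lowest signal well above background on that array.

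In Rif1 siRNA against control siRNA the measured flanking genes moved less. Kitl differed by 0.40 (log2) between Rif1 siRNA at 72 h and control siRNA, Tmtc3 by 0.22, Cep290, a centrosome and cilium gene, by 0.29, and 4930430F08Rik by 0.22, all below the SD of 0.505 over measured probes. A second Tmtc3 probe (A_51_P212473) was not well above background with control siRNA and its bound was under 1, so it has no fold here, and 1700017N19Rik was not well above background on either array. That Tmtc3 probe was at 0.0820 in untreated cells and at 0.0126 at 72 h of Rif1 siRNA, a difference of -2.70 (log2), unlike the other Tmtc3 probe. With control siRNA it was at most 0.193-fold its untreated level (-2.37 on the log2 scale). Compared with untreated cells, Kitl was 0.48 (log2) higher with control siRNA and 1.84-fold higher at 72 h of Rif1 siRNA. Near Gm4340 the array has 1 other probe, NAP068632-1, which differed by -0.11. The other copies of the Gm4340 block have no probe of their own name, so their share in its value was not measured.

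**Figure D3:**
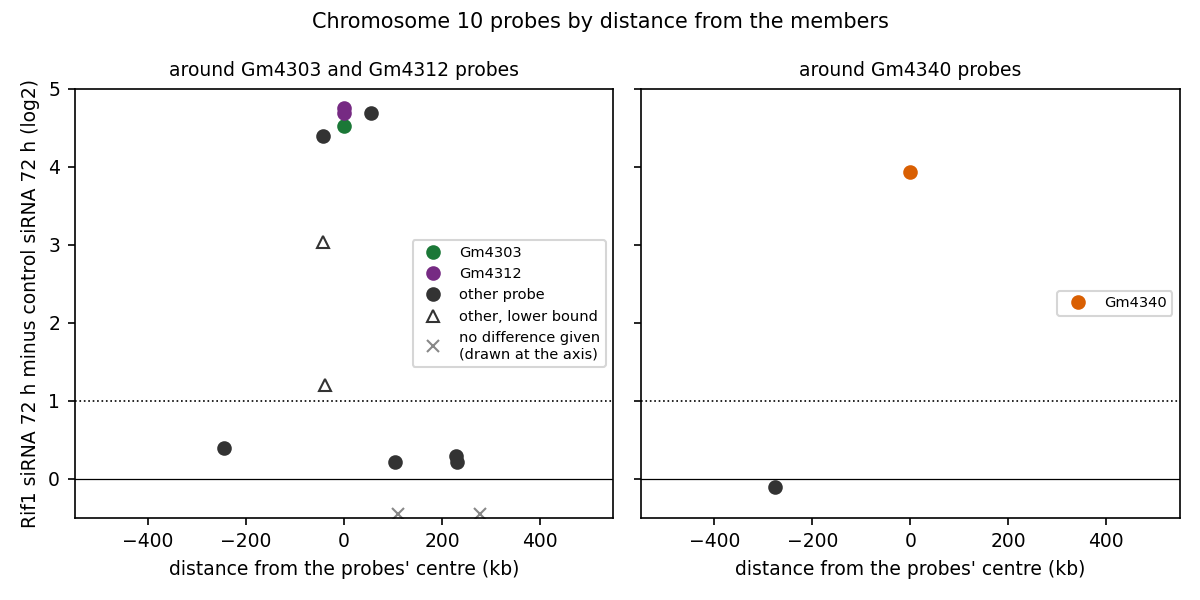
Difference between Rif1 siRNA at 72 h and control siRNA (log2) of the chromosome 10 probes within 500 kb of the Gm4303 and Gm4312 probes (left) or of Gm4340 (right), by distance in kb on mm9; triangles are lower bounds, crosses are probes with no difference given, and the dotted line is 2-fold. The 4 other probes within 60 kb of Gm4303 and Gm4312 lie above the line, and the measured flanking probes lie between -0.11 and 0.40.

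A list of 2C-stage genes, made up of Zscan4, Tcstv, Usp17l, Gm2022-type, Dux-type and other genes known from that stage, was set beside the 3 genes. It was written with earlier results of these data known. It has 34 probes of 21 gene names, all of which passed the filter. At 72 h of Rif1 siRNA, 31 of the 34 were over 2-fold higher than with control siRNA (4 of them by a lower bound), as were 31 at 48 h. Of all probes that passed the filter, 2.82% were at 72 h and 3.17% at 48 h. Its median difference at 72 h was 4.33 (log2), beside 4.60 for the 3 genes and -0.07 for all measured probes. The 7 probes of Zscan4, which encodes a DNA-binding protein of the 2C stage, differed by 3.71 to 4.59. Tcstv1 and Tcstv3, named as 2-cell-stage variable group genes, differed by 4.64 and 5.12. Zfp352 had a probe at 0.12 and a probe at a lower bound of 4.35, so its probes do not agree. The remaining listed probes under 2-fold were a Dux probe at 0.38 and a Usp17la probe at 0.44, and each gene has a second probe over 2-fold, Dux at a lower bound of 1.25 and Usp17la at 4.62. The 3 genes lie within the range of this list.

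In control siRNA against untreated cells, 11 of the 34 listed probes were over 2-fold higher (1 of them by a lower bound), and 29 of the 34 had a value. None of the 4 probes of the 3 genes passed 2-fold, and 0.584% of all 27732 filtered probes did, a share that includes probes without a value. The median was 0.93 (log2) for the list and 0.75 for the 3 genes. The Zscan4 probes were at 0.99 to 1.21, above the highest of the 3 genes, Gm4340, at 0.87. Tcstv1 and Tcstv3 were at 0.88 and 1.09. Between 48 h and 72 h of Rif1 siRNA, 0 of the listed probes passed 2-fold, as 0.49% of all probes did, and the median of the list was 0.12. Every comparison of the list with the 3 genes uses the same 4 arrays and was not tested.

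**Figure D4:**
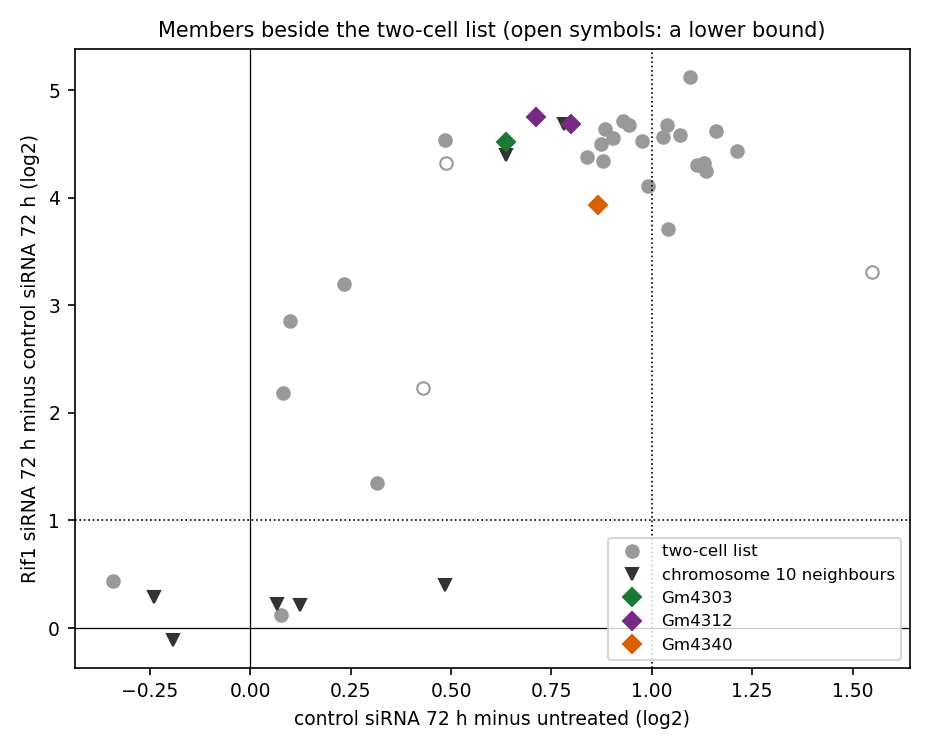
Difference between Rif1 siRNA at 72 h and control siRNA (vertical, log2) against the difference between control siRNA and untreated cells (horizontal, log2) for probes with both values; diamonds are Gm4303, Gm4312 and Gm4340, gray circles the 2C list, black triangles the chromosome 10 neighbors, open symbols lower bounds, and dotted lines 2-fold. The diamonds lie at 0.64 to 0.87 and 3.93 to 4.76, near most of the 2C list, and the flanking genes lie near 0 on the vertical axis.

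The probes whose 4-array profile was nearest to each gene were found among 22518 probes well above background on all arrays, as the Euclidean distance between log2 profiles centered on their means. For Gm4303 the 5 nearest names were BB287469 (distance 0.078), A_55_P2138500 (0.099), ENSMUST00000159087 (0.102), A_55_P2081432 (0.108) and NAP018810-001 (0.113). For Gm4312, of which only the brighter probe (A_55_P1980072) was used, they were ENSMUST00000167995 (0.085), AF067061 (0.091), D13Ertd608e (0.112), Tcstv1 (0.123) and BB287469 (0.164). For Gm4340 they were A_55_P2136612 (0.067), A_55_P2107785 (0.080), Lgals4, which encodes a galactose-binding lectin (0.139), A_55_P2051596 (0.155) and Gm20767 (0.168). ENSMUST00000167995 and A_55_P2136612 share at least 16 bases with the probe they follow, whereas NAP018810-001 shares such a run with a Gm4312 probe and not with the Gm4303 probe. ENSMUST00000167995 is the only one of the named probes with a position on chromosome 10 of mm9. Profiles over 4 arrays are a description and carry no p-value.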

How the data were processed

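Total RNA of E14tg2a cells was hybridized to 4 one-color Agilent arrays, 1 per condition. The authors deposited the output of Agilent Feature Extraction 11.5.1.1 with the processed signal of each spot, a background-subtracted and detrended intensity, and its mm9 position. The authors also deposited a table of each signal as a linear ratio to about the 75th percentile of that array. From these, log2(processed signal) minus the log2 of the 75th percentile over non-control spots was computed. Outlier spots (120 to 152 per array) were left out, and 0 were saturated. Probes were kept (27732) if they were at or above the 20th percentile on at least 1 array and detected on at least 2 of the 4 arrays. Detected means positive, significant and well above background, and an outlier or saturation flag also counted. A probe dim on one side only was given a lower bound. With 1 array per condition no test was run, and array number limits precision. The members and lists were chosen with earlier results of these data known. Genes were named by rule: all member probes, probes sharing 16 bases with them, neighbors within 500 kb over 2-fold higher at 72 h, the 5 nearest profiles per gene, Rif1, and the listed genes as examples. Flanking genes were also named, after their values were seen. A second experiment that the methods mention was not analysed here. The steps were tested on simulated data. Alternatives were normexp (offset 50), quantile normalization, the deposited ratios, another percentile, other filters, a 4-fold threshold and untreated cells as the control. Python 3.11.15, numpy 2.4.6, pandas 2.3.3, matplotlib 3.10.9, R 4.3.3 and limma 3.58.1 were used.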

Additional observations from a re-analysis of the deposited data

How the results depend on the processing

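The 16 differences of the member probes (4 probes, 4 pairs of arrays) kept their direction and moved by less than 0.256 (log2), the SD of control siRNA minus untreated over all measured probes and not a replicate SD, under normexp, quantile normalization, the deposited ratios, another percentile and outlier spots kept. Against untreated cells in place of control siRNA, the median of the members at 72 h was 5.31 (log2) in place of 4.60. Counts of all probes over 2-fold moved more. At 72 h of Rif1 siRNA against control siRNA, 783 became 416 under normexp, 358 over 4-fold and 515 with both arrays well above background. At 48 h, 878 became 449, 374 and 571 under the same settings, and for control siRNA against untreated cells 162 became 68, 25 and 85. The 4 chromosome 10 neighbors over 2-fold at 72 h became 2 with both arrays well above background, since the others are lower bounds. That count became 3 under normexp, 3 over 4-fold and 3 with untreated cells as the control. Of the 2C-stage list, 31 probes over 2-fold at 72 h became 28 under normexp and 28 with untreated cells as the control. The list count was 27 over 4-fold and 27 with both arrays well above background. Normexp also shifted the median of all probes to -0.12 at 72 h and -0.10 at 48 h. The cause of the other changes was not tested.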

Other observations

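Alyref, which Gm4303 and Gm4312 resemble, and its relative Alyref2 were looked up after the other values had been seen. Alyref had levels of 12.5 untreated, 11.95 after control siRNA, and 10.6 and 10.8 after 48 h and 72 h of Rif1 siRNA, a difference of -0.14 (log2) at 72 h from control siRNA. Alyref2 had levels of 1.48, 1.43, 2.81 and 3.01 in the same order, 1.97-fold at 48 h and 2.10-fold at 72 h over control siRNA. Its control siRNA level differed from that in untreated cells by -0.05 (log2), whereas the Gm4303 and Gm4312 probes differed by 0.64 to 0.80. These are single arrays, and no difference was tested.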
